A study of Rattus norvegicus with 36 samples.

Results

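Messenger RNA of 4 genes of activity-dependent plasticity was followed across 9 rats: Bdnf (ENSRNOG00000047466), Ntrk2 (ENSRNOG00000018839), Creb1 (ENSRNOG00000013412) and Camk2a (ENSRNOG00000018712). They were chosen by identifier, 4 of the 32402 that were listed, and carry the symbols given with that choice. The deposited tables hold identifiers without names. All animals were Sprague-Dawley rats aged 8 weeks, and the tissue was labelled nucleus accumbens, the ventral striatum. The extraction protocol also names the caudate putamen. Saline rats (3) had 4 injections of physiological serum, 15 days of withdrawal and 1 further serum injection. CPPE rats (3, also labelled dependent) had cocaine in place of serum at each step, the last dose being 5 mg/kg, and expressed a preference for the place paired with cocaine in a test of 18 min. nCPPE rats (3, also labelled non dependent) had the same cocaine course and did not express the preference. An extinction of 12 days is named in the series text. The sources used here do not give sex, the dose of the earlier cocaine injections or the criterion that parted CPPE from nCPPE.

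BDNF is a secreted neurotrophin that strengthens synapses. It binds TrkB, the receptor tyrosine kinase encoded by Ntrk2, which signals through the MAPK, PI3K and phospholipase C routes. CREB, encoded by Creb1, is a transcription factor that kinases switch on after synaptic activity and dopamine signalling, and Bdnf is one of its textbook targets. CaMKII, whose alpha subunit is encoded by Camk2a, is the calcium-dependent kinase of the postsynaptic density. In the striatum much of the BDNF protein is known to arrive in the terminals of cortical and midbrain neurons, and local transcription of the gene is low. Ntrk2 makes both a kinase receptor and truncated forms in neurons and astrocytes, which counts per gene do not separate.

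Because CREB binds the sequence TGACGTCA (the cAMP response element) and its half-site TGACG, both were searched in RefSeq promoter windows (build GRCr8) that run from 250 bases before to 50 after a start site. The half-site was searched on both strands, where it reads TGACG or CGTCA, and every full element also contains it. Windows were found for 3 of the 4 genes, Ntrk2 having none in the table. A half-site was in 1 of 6 Bdnf windows, 1 of 2 Creb1 windows and the 1 Camk2a window, that is in 3 of 9, and no window held the full element. Over all 33469 rat windows of this length, 21.2% held a half-site and 1.83% the full element. The upstream part of the Bdnf window with the half-site is shown because Bdnf is a textbook target of CREB, with the half-site in capitals, its first base 35 bases before the start. It is chr3:116637608-116637857, plus strand:

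Bdnf: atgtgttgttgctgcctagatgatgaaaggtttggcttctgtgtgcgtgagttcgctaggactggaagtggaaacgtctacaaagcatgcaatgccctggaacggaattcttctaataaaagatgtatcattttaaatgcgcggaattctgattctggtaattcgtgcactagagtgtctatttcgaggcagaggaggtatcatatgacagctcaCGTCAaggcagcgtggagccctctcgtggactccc

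The half-sites of the other genes, in capitals with 10 bases on each side, are given for comparison. The Creb1 window held 3, at 80 and 59 bases before the start and 8 bases after it, on the plus strand of chromosome 9. The Camk2a window held 2, at 150 and 92 bases before the start, on the plus strand of chromosome 18. These matches describe the letters only.

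Creb1, chr9:73397419-73397443: tgttggtgagTGACGcggcggaggt
Creb1, chr9:73397440-73397464: aggtgtagttTGACGcggtgtgtta
Creb1, chr9:73397507-73397531: acgaaagcagTGACGgaggagcttg
Camk2a, chr18:56649020-56649044: acctggatgcTGACGaaggctcgcg
Camk2a, chr18:56649078-56649102: gccccaagctCGTCAatcaagctgg

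The counts of each rat are the sum of 4 technical libraries, and came to 27724289 to 39067715 per rat. Levels are given in CPM, counts scaled to library size with TMM factors (trimmed mean of M values). CPM is not corrected for gene length, so levels of different genes are not compared with each other. One library, Saline 2, stood apart. Its correlation with the others over the 15555 genes tested was 0.919 to 0.940 (Pearson's r of log2 CPM across genes, which are not independent), against 0.982 to 0.993 among the other 8 rats. Results with Saline rats are therefore given with and without it, and its part in them is stated as those values. Technical libraries of a rat were compared by chi-square tests of the read counts. Of 36 tests (4 genes in 9 rats), 6 had p below 0.05 and none had an adjusted p below 0.05 (Benjamini-Hochberg over the 36, smallest 0.220). For Bdnf this test is approximate, since expected counts were low.

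Bdnf, the ligand, was at the edge of detection and varied most of the 4 genes over the 9 rats. The Saline rats had 1.00, 1.07 and 0.252 CPM, from 29, 30 and 7 reads. The CPPE rats had 0.129, 1.75 and 0.358 CPM, from 4, 69 and 11 reads. The nCPPE rats had 0.0596, 0.192 and 0.446 CPM, from 2, 6 and 14 reads. CPPE 2 was thus the highest of all rats and CPPE 1, in the same group, the second lowest, and each pair of groups overlapped.

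The group means of Bdnf ran from 0.777 ± 0.456 CPM in Saline and 0.746 ± 0.878 CPM in CPPE to 0.233 ± 0.197 CPM in nCPPE rats (SD, n = 3 each). Neighbours in this order differed by less than the SD of the higher group. Medians kept the order, at 1.00, 0.358 and 0.192 CPM. Without CPPE 2 the other CPPE rats averaged 0.243 CPM. The order of the means was the same, but CPPE then lay beside nCPPE and no longer beside Saline. Saline 1 and Saline 3 alone averaged 0.628 CPM, which would place Saline below the CPPE mean of 0.746 CPM.

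Counting error is wide at this depth, but the spread within groups was larger. The exact 95% Poisson interval of CPPE 2, 1.36 to 2.22 CPM, lay above the interval of every other cocaine rat, the highest of which ended at 0.749 CPM in nCPPE 3. It overlapped the intervals of Saline 1 (0.672 to 1.44 CPM) and Saline 2 (0.725 to 1.53 CPM). In nCPPE 1 the interval ran from 0.00721 to 0.215 CPM. Within a group the variance of Bdnf counts was 7.12 times that of counting alone in Saline, 33.7 times in CPPE and 5.46 times in nCPPE rats. Single technical libraries held between 0 and 21 Bdnf reads, and the high level of CPPE 2 was in all 4 of its libraries, with 21, 15, 21 and 12 reads. The intervals cover counting error only.

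**Figure D1:**
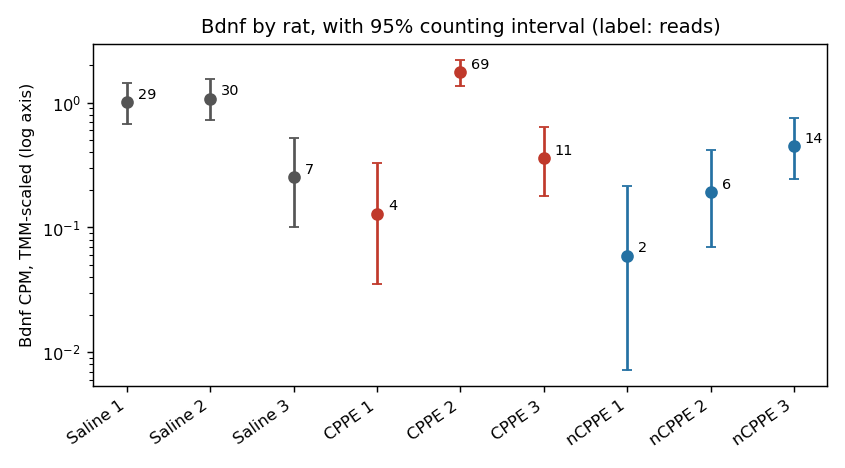
Bdnf level of each rat in CPM on a log axis, with exact 95% Poisson intervals as bars and the number of reads beside each point; grey, red and blue are Saline, CPPE and nCPPE. CPPE 2 (69 reads) is highest and nCPPE 1 (2 reads) lowest, with wide intervals in rats of few reads.

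In edgeR the Bdnf level was 3.27-fold as high in CPPE as in nCPPE rats, with a 95% interval of 0.673 to 15.9 (log2 1.71 ± 1.00 SE, adjusted p 1.00). Without CPPE 2 the same difference was 1.05-fold, with an interval of 0.232 to 4.78. Against Saline the CPPE rats were at 0.982-fold (0.233 to 4.13) and the nCPPE rats at 0.300-fold (0.0607 to 1.49). Without CPPE 2 the CPPE rats were at 0.316-fold of Saline (0.0753 to 1.33). Without Saline 2 the nCPPE difference was -1.44 on the log2 scale, in place of -1.74. The CPPE difference from Saline was then 0.29, in place of -0.03. Cocaine rats as a whole were at log2 -0.88 ± 0.81 (SE) against Saline, and at -1.70 ± 0.67 without CPPE 2 (edgeR adjusted p 0.825 and 0.898). Without Saline 2 they were nearer to Saline, at -0.57 ± 0.91 (edgeR adjusted p 0.908). With all 9 rats each Bdnf interval included no difference as well as differences of several fold. Leaving out 1 rat gave 2 edgeR intervals that excluded no difference, neither of which passed the adjusted test. They were cocaine against Saline without CPPE 2 (0.104 to 0.914-fold, unadjusted p 0.0373) and CPPE against nCPPE without CPPE 1 (1.02 to 20.3-fold, unadjusted p 0.0472, adjusted p 1.00).

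Ntrk2, the receptor gene, was abundant and the most even of the 4 genes over all 9 rats. The Saline rats had 414, 326 and 445 CPM. The CPPE rats had 457, 529 and 408 CPM. The nCPPE rats had 388, 337 and 444 CPM. CPPE 2 was again the highest rat, while Saline 2 and nCPPE 2 were the lowest, and all groups overlapped.

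By mean, CPPE rats led with 465 ± 61.0 CPM, followed by Saline with 395 ± 61.8 CPM and nCPPE with 390 ± 53.7 CPM (SD over 3 rats). The step from CPPE to Saline was slightly larger than the SD of either group, and Saline and nCPPE differed by far less than theirs. The CPPE level was 1.19-fold that of nCPPE (95% interval 0.912 to 1.56, edgeR adjusted p 1.00). It was 1.18-fold that of Saline (0.900 to 1.54, adjusted p 0.882). The nCPPE level was 0.987-fold that of Saline (0.755 to 1.29, adjusted p 0.984). Without Saline 2 the CPPE difference from Saline shrank from 0.23 to 0.11 on the log2 scale. The interval for CPPE against nCPPE uses a spread shared with Saline 2, and without this rat it was 0.992 to 1.43-fold. Without CPPE 2 the other CPPE rats averaged 432 CPM. In each of the 4 comparisons the 95% interval for Ntrk2 excluded a 2-fold difference in either direction. In RefSeq (GRCr8) 7 long noncoding RNA genes overlap the span of Ntrk2. The strand setting of the counting is unknown here and overlap of exons was not examined. Whether reads of such partners are included is therefore not known.

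Creb1, the transcription factor gene, was low in counts and nearly level in the cocaine rats. The CPPE rats had 3.35, 4.11 and 3.52 CPM, and the nCPPE rats 3.40, 2.81 and 3.70 CPM. The Saline rats had 4.70, 0.681 and 3.17 CPM, from 136, 19 and 88 reads. Saline thus held both the highest and the lowest rat of the series, and the lowest was Saline 2.

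Creb1 averaged 3.66 ± 0.400 CPM in CPPE, 3.30 ± 0.450 CPM in nCPPE and 2.85 ± 2.03 CPM in Saline rats (SD over 3 rats in each group). The step from CPPE to nCPPE was smaller than either SD, and that from nCPPE to Saline was far smaller than the Saline SD. Saline 1 and Saline 3 alone averaged 3.94 CPM, which would place Saline first. Within CPPE and nCPPE the variance of counts was 1.88 and 1.70 times that of counting alone, so that counting error made up much of the spread there, and 42.9 times in Saline. CPPE rats were at 1.11-fold of nCPPE (95% interval 0.489 to 2.51, edgeR adjusted p 1.00). Against Saline the cocaine rats were at log2 0.28 ± 0.46 (SE), and without Saline 2 the sign turned, to -0.18 ± 0.19. In RefSeq the span of the protein-coding gene Mettl21a overlaps that of Creb1. Overlap of exons was not examined, so whether its reads are included is not known.

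Camk2a, the kinase subunit gene, was abundant and even in 8 of the 9 rats. The CPPE rats had 828, 785 and 723 CPM, and the nCPPE rats 797, 721 and 651 CPM. The Saline rats had 736, 312 and 718 CPM. Saline 2 stood below every other rat, and the other Saline rats lay within the range of the 6 cocaine rats.

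Camk2a averaged 779 ± 52.8 CPM in CPPE, 723 ± 73.1 CPM in nCPPE and 589 ± 240 CPM in Saline rats (SD over 3 rats in each group). Saline 1 and Saline 3 alone averaged 727 CPM, between the cocaine groups. CPPE rats were at 1.08-fold of nCPPE (95% interval 0.687 to 1.69, edgeR adjusted p 1.00). That interval uses a spread shared with Saline 2, and without this rat it narrowed from -0.54 to 0.76 on the log2 scale to -0.09 to 0.31. CPPE rats were at 1.32-fold of Saline (0.843 to 2.07, adjusted p 0.882), a log2 difference of 0.40 that was 0.10 without Saline 2. For nCPPE against Saline the log2 difference of 0.30 became -0.0076 without it. The excess of cocaine over Saline rats in Camk2a therefore came with the low value of 1 Saline rat. In bulk tissue fewer cells of a type and less RNA per cell cannot be told apart for any of these genes.

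**Figure D2:**
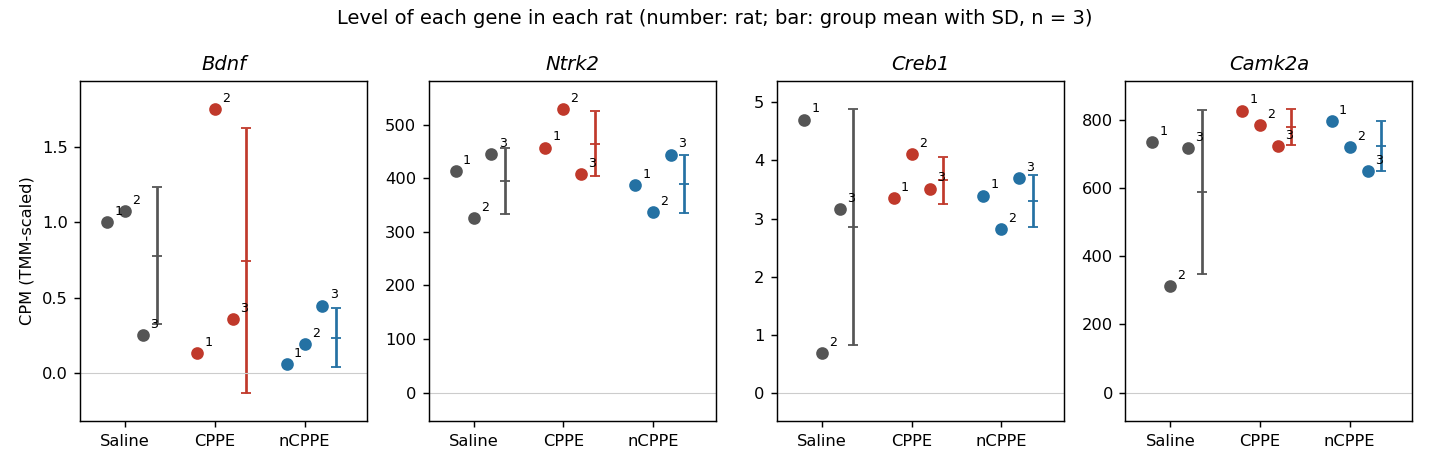
Level of each gene in each rat in TMM-scaled CPM, with the rat's number beside the point and the group mean with SD (n = 3) as a bar. Groups overlap in every panel, Saline 2 is lowest for Ntrk2, Creb1 and Camk2a, and CPPE 2 is highest for Bdnf and Ntrk2.

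Read from the fit over all 15555 genes, none of the 4 genes passed the test in any of the 4 comparisons (edgeR quasi-likelihood test, adjusted p 0.825 to 1.00 over the 16 values). With all 9 rats none of the 16 had an unadjusted p below 0.05 in edgeR. Over the 17 alternatives 4 of 268 values did. Besides the 2 for Bdnf given above, they were Bdnf in nCPPE against Saline by limma-voom (log2 -2.20, unadjusted p 0.0339) and Ntrk2 in CPPE against nCPPE by DESeq2 without Saline 2 (log2 0.26, unadjusted p 0.0322). In these 2 fits 7.85% and 3.02% of all genes tested were below 0.05 unadjusted. In the fits without CPPE 2 and without CPPE 1 the shares were 1.22% (cocaine against Saline) and 0.591% (CPPE against nCPPE). That no member passed with all 9 rats is also the background, since edgeR called 0% of genes changed in each comparison. The comparisons were CPPE with nCPPE, each of these groups with Saline, and all cocaine rats with Saline. The numbers of genes at an unadjusted p below 0.05 were 84, 139, 179 and 193 in that order. DESeq2 called 1, 0, 1 and 1 genes and limma-voom 0 in each, and none of these was a member. The comparisons with Saline share the same 3 control rats and are not independent of each other.

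For no member did the compared groups lie apart without overlap, 0 of 4 in each comparison. Among all tested genes such separation was found in 8.49% when CPPE and nCPPE were compared, 5.72% when CPPE and Saline were, 4.03% with nCPPE and Saline and 1.03% with all cocaine rats and Saline, so that none among 4 is close to what the background gives. For CPPE against nCPPE all 4 fitted differences were above 0, with a median of 0.20 on the log2 scale beside -0.0011 over all genes tested. Without CPPE 2 they were smaller, at 0.07 for Bdnf, 0.15 for Ntrk2, 0.06 for Creb1 and 0.10 for Camk2a. For nCPPE against Saline the median of the 4 was 0.10 with all rats and -0.20 without Saline 2, beside -0.0071 and 0.0055 over all genes. These medians describe 4 genes measured in the same libraries.

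**Figure D3:**
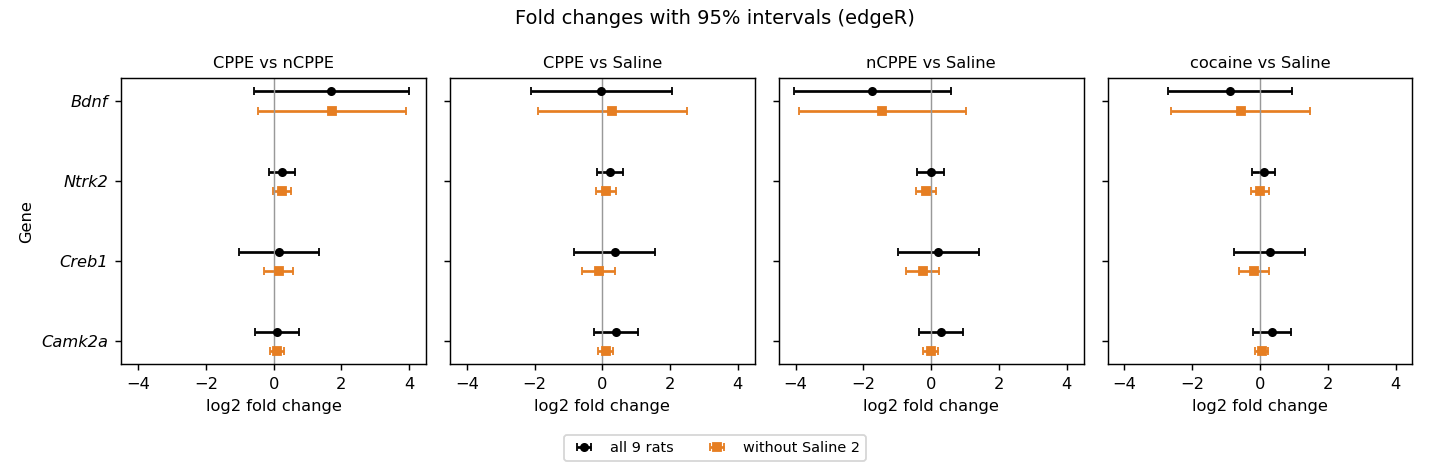
Log2 fold change of each gene with its 95% interval from edgeR in the 4 comparisons, with all 9 rats (black circles) and without Saline 2 (orange squares). Every interval includes 0. Those of Bdnf are widest, and those of Ntrk2, Creb1 and Camk2a narrow when Saline 2 is left out.

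The 4 genes took different directions in Saline 2, the library that stood apart. Relative to the mean of the other 8 rats its log2 level was -2.28 for Creb1, -1.25 for Camk2a and -0.38 for Ntrk2, and 1.47 for Bdnf. Of all genes tested, 4.26% were at least as far down as Creb1 in this rat, 15.0% as Camk2a and 35.5% as Ntrk2, while 1.55% were at least as far up as Bdnf. The median over all genes was 0.0046. Bdnf was thus high in a library where the other 3 were at their lowest, a level it shared with Saline 1, in which Creb1 was also high (0.73) and Camk2a (0.14) and Ntrk2 (0.0059) lay near the other rats.

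**Figure D4:**
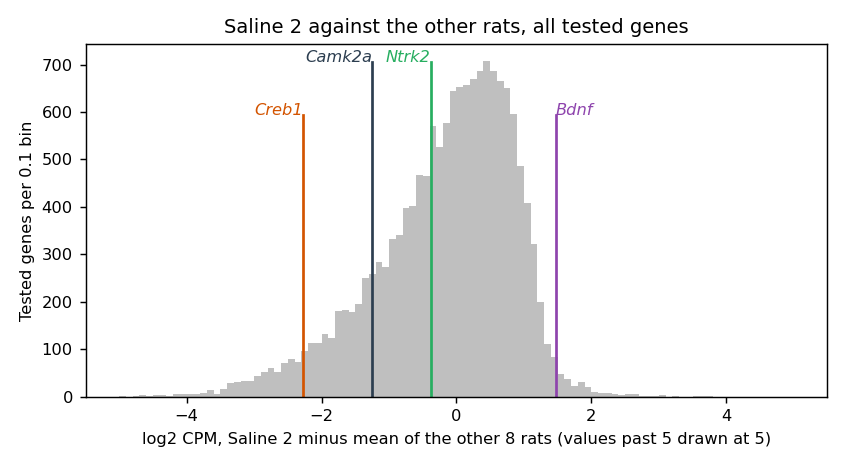
Log2 CPM of Saline 2 minus the mean of the other 8 rats for all 15555 genes tested, as a histogram with bins of 0.1, with the 4 genes as vertical lines. Creb1 (-2.28), Camk2a (-1.25) and Ntrk2 (-0.38) lie below 0 and Bdnf (1.47) in the upper tail.

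Among genes of like abundance (within 2-fold of the mean count), Bdnf was one of the most variable between rats. The SD of its log2 CPM over 9 rats was 1.29, and 2.39% of 1883 like genes had a larger one, against a median of 0.50 for them. Without Saline 2 it was 1.28, exceeded by 1.75%. Ntrk2 had an SD of 0.22 over all rats, exceeded by 57.2% of 664 like genes, and of 0.19 without Saline 2, exceeded by 6.63%. Creb1 and Camk2a went the other way. Their SD was 0.79 and 0.43 with all rats, exceeded by 10.4% and 10.6% of like genes, and 0.22 and 0.11 without Saline 2, exceeded by 53.9% and 46.5%. So the rat-to-rat spread of Creb1 and Camk2a lay mostly in Saline 2, and that of Bdnf and Ntrk2 mostly in the other animals.

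**Figure D5:**
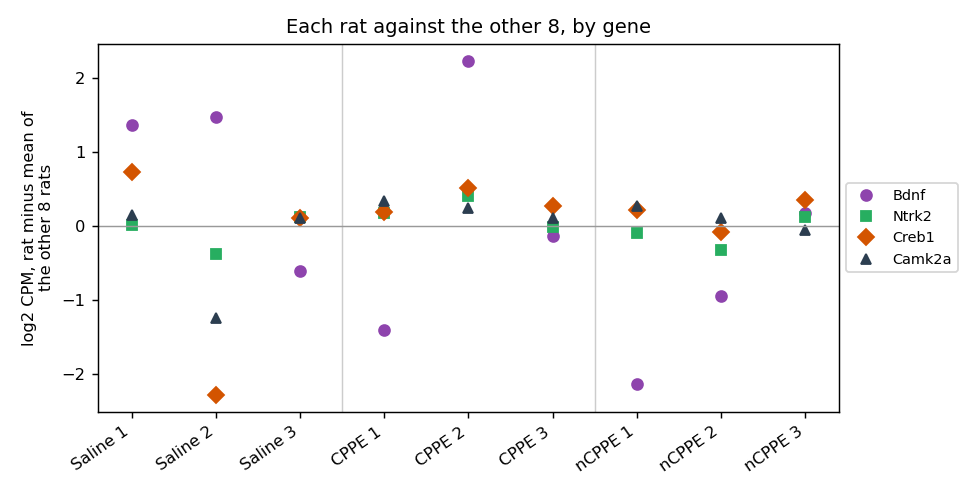
For each rat, log2 CPM minus the mean of the other 8 rats, by gene; vertical lines part Saline, CPPE and nCPPE. Bdnf (purple circles) ranges from -2.13 in nCPPE 1 to 2.23 in CPPE 2, while outside Saline 2 the farthest value of the other genes is 0.73, for Creb1 in Saline 1.

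Whether the 4 genes varied together between animals was examined for the 6 pairs, with exact two-sided permutation tests adjusted over the pairs. No pair passed, with 9 rats or with 8. Creb1 and Camk2a had r = 0.94 over 9 rats (exact permutation p = 0.0549, adjusted 0.165), but Spearman's rho was 0.38 (exact permutation p = 0.313, adjusted 0.430). The relation rested on Saline 2, without which r was 0.021 (exact permutation p = 0.962). Leaving out Saline 1 and Saline 2, the rats farthest from the median Creb1 level, gave an r of 0.080.

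Bdnf and Creb1, the textbook target and its regulator, behaved in the opposite manner. Over the 8 rats other than Saline 2 their levels had r = 0.75 (exact permutation p = 0.0321, adjusted 0.193) and rho = 0.76 (exact permutation p = 0.0368, adjusted 0.221). With CPPE 2 and nCPPE 1, the extremes of Bdnf, also left out, r was 0.88. With the same extremes left out but Saline 2 kept, r was -0.39. The sign of r thus depended on whether Saline 2 was included. With Saline 2 included r was -0.18 (exact permutation p = 0.684, adjusted 0.684) and rho 0.35 (exact permutation p = 0.359, adjusted 0.430). Ntrk2 and Creb1 had r = 0.67 over 9 rats (exact permutation p = 0.0312, adjusted 0.165) and rho = 0.52 (exact permutation p = 0.162, adjusted 0.430). That r was 0.51 without Saline 2 and 0.38 without Saline 2 and CPPE 2, and it turned to -0.25 when nCPPE 2 was left out as well. The other pairs had r between -0.42 and 0.60 over 9 rats, with adjusted exact permutation p of 0.191 to 0.684.

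For each gene the gene most like it across rats, among those with a mean of at least 1 CPM, is given by identifier and as a description. Over the 8 rats other than Saline 2, Bdnf was most like ENSRNOG00000057501 (r = 0.99). That gene ran from 54.3 to 109 CPM over all 9 rats and so varied much less. Ntrk2 was most like ENSRNOG00000021318 (r = 0.98), and Camk2a most like ENSRNOG00000019933 (r = 0.97). Creb1 was most like ENSRNOG00000057943 both over these 8 rats (r = 0.95) and over all 9 (r = 0.996). Over all 9 rats Bdnf was most like ENSRNOG00000050767 (r = 0.98), Ntrk2 like ENSRNOG00000028341 (r = 0.97) and Camk2a like ENSRNOG00000052018 (r = 0.99). The genes most like Creb1 and Camk2a over all 9 rats were low, at 0.645 to 3.63 and 0.179 to 1.67 CPM. Each r is the highest among 13765 or 13766 genes compared. With Saline 2 included 20.4% of genes had an r above 0.9 with Creb1 and 19.2% with Camk2a, and without it 0.182% and 0.160%. For Bdnf these shares were 0.131% and 0.283%.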

How the data were processed

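Per the labels' protocols, poly(A) RNA from 300 ng of total RNA was made into libraries with the TruSeq Stranded mRNA kit. The submitters' processing notes name bcl2fastq (2.18.0.12), the aligner STAR and the counter HTSeq (0.5.3). Genome build, annotation, STAR version and strand setting: not given in the sources used here. What the authors deposited are unnormalized read counts by Ensembl identifier, in 1 table for each of 36 technical libraries (6771828 to 9961469 counts each).

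The 4 technical counts of a rat were summed, so that each rat is 1 sample. edgeR 4.0.16 (R 4.3.3) was run on all genes after filterByExpr (15555 left, the 4 members among them), with TMM scaling, group as the sole factor, quasi-likelihood tests and Benjamini-Hochberg adjustment over all genes. A gene was called at an adjusted p below 0.05. The cocaine against Saline contrast took the mean of both cocaine groups. SEs and 95% intervals came from the same fit. log2 CPM used a prior count of 2. Simulated data, in which no rat stood apart, tested the edgeR fit for comparisons between single groups and the permutation test of correlation. The other procedures were not tested in this way. Alternatives were other scalings, no filter, DESeq2 1.42.0, limma 3.58.1 (voom with quality weights), the compared groups alone, a replicate block and leaving out each rat.

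Members, lists and tests were chosen with earlier results of these data known. Genes named beside the members were those with the highest r to each. The reference table (GRCr8) paired 0 genes with Ensembl identifiers, so lists of further neurotrophin, CREB and CaMKII genes, and markers of the labelled tissue and of other cell types, were not analysed here. Labels say that the rats are separate animals.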

Additional observations from a re-analysis of the deposited data

Results flagged for a closer look

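Among the 6 cocaine rats Bdnf was far higher in CPPE 2, at 1.75 CPM, than in the others, at 0.0596 to 0.446 CPM. The gap to the nearest rat took 0.771 of the whole range in CPM, above the limit of 0.625 for 6 samples. All 4 genes were examined in this way, and chance marks about 1 in 20 such groups if values are normally distributed. Whether the CPM values are so distributed was not tested. In log2 CPM the same rat was at 0.86, the next cocaine rat, nCPPE 3, at -0.97 and the lowest, nCPPE 1, at -3.02. The rule was not applied on that scale, where the gap takes a smaller part of the range. CPPE 2 also had the highest Ntrk2 level (529 CPM) and the second highest Creb1 level (4.11 CPM), and the largest number of counts (39067715). The part of depth in the Bdnf level was not tested.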

How the results depend on the processing

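No value of the 4 genes with an adjusted p passed the threshold under any of the 17 alternatives (smallest edgeR adjusted p 0.465, for Camk2a, cocaine against Saline, without Saline 3). One of these alternatives, DESeq2 without Saline 2, was chosen after seeing the data. It gave no adjusted p for Bdnf and Creb1 in CPPE against Saline and in cocaine against Saline. Of 268 alternative log2 differences, 244 kept their direction. The other 24 turned main differences that ran from -0.03 to 0.36. Those of Creb1 and Camk2a all came without Saline 2 or by limma-voom, and the cause was not tested. For CPPE against Saline, Bdnf (main -0.03) was 0.013 by library totals and 0.26 by DESeq2 without Saline 2, and Creb1 (main 0.36) was -0.14 by limma-voom and -0.10 by DESeq2 without Saline 2. For nCPPE against Saline, Ntrk2 (main -0.02) was 0.0080 by library totals, Creb1 (main 0.21) was -0.25 by limma-voom and -0.26 by DESeq2 without Saline 2, and Camk2a (main 0.30) was -0.010 by the latter. For cocaine against Saline, Ntrk2 (main 0.11) was -0.0434 by limma-voom and -0.013 by DESeq2 without Saline 2, and Creb1 (main 0.28) was -0.19 and -0.18.

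Leaving out each rat in turn gave these ranges where the sign turned: Bdnf for CPPE against Saline -1.66 to 0.46, Creb1 for CPPE against Saline -0.10 to 0.93, for nCPPE against Saline -0.25 to 0.78 and for cocaine against Saline -0.18 to 0.86. The others were Ntrk2 for nCPPE against Saline -0.14 to 0.0755 and for cocaine against Saline -0.0124 to 0.20, and Camk2a for nCPPE against Saline -0.0076 to 0.49. Bdnf for CPPE against nCPPE ran from 0.07 to 2.58 without turning. The correlation of Bdnf and Creb1 was 0.75 without Saline 2, against -0.18. The number of genes called, 0 in edgeR, was 1 (CPPE against nCPPE), 1 (nCPPE against Saline) and 1 (cocaine against Saline) by DESeq2, and 1, 12, 6 and 27 by DESeq2 without Saline 2 in the 4 comparisons, none of them a member.

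Rats share the numbers 1 to 3 across groups, but no label says that they are paired. Deviations from group means correlated above 0.1 in 2 of 9 same-numbered pairs (-0.45 to 0.26), and 0 of 9 rats correlated best with its own number in both other groups. With the number as a replicate block edgeR again called 0 genes, and Bdnf for CPPE against nCPPE was 1.29 in place of 1.71. Bdnf had 2 to 69 reads per rat, and its variance within groups was 5.46 to 33.7 times that of counting alone, so both few reads and the spread between rats widen its intervals.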
